A study of Mus musculus with 12 samples.

Results

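Injured mouse retinal ganglion cells of 2 classes, intrinsically photosensitive ones (ipRGCs) and ON-OFF direction-selective ones (ooDSGCs), were compared 3 days after their axons had been crushed in the optic nerve. The comparison takes 6 of the 12 libraries of the study, which looked for regulators of axon regeneration: 3 libraries labelled Opn4 and 3 labelled HB9, chosen by their labels alone. The Opn4 cells carried the genotype Opn4CreERT/+;R26-tdTomatof/f, in which the melanopsin gene drives an inducible Cre recombinase that turns on a red reporter. The HB9 cells carried HB9:GFP, in which the promoter of the motor neuron factor HB9 (Mnx1) drives a green reporter. Mice of both lines were given tamoxifen at 0.124 mg per g of body weight on 5 days from postnatal day 21, and surgery followed at postnatal day 42. The other 6 libraries came from the same lines 3 days after sham surgery and served to show which class differences cells without a crushed nerve also had. Each library held 30 cells picked by hand under fluorescence, 10 from each animal, and whether libraries shared animals is not stated. Cre, the red reporter and the melanopsin allele came with the Opn4 line and the green transgene with the HB9 line, so their effects cannot be told apart from those of the cell class.

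Ganglion cells are the neurons that carry the output of the retina to the brain, and most of them neither survive nor regrow an axon after the nerve is crushed. ipRGCs contain the photopigment melanopsin, signal ambient light, and are known among ganglion cells for surviving such injury comparatively well. ooDSGCs respond to motion in a preferred direction at both light onset and offset. After axon damage, the kinases DLK and JNK activate transcription factors such as Jun and Atf3. A stress pathway through PERK or related kinases, Atf4 and Ddit3 (CHOP) runs beside them, and their targets include growth-associated, metabolic and death-related genes.

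Values are RPKM, reads scaled by the length of the gene and the total of the library. Differences are Opn4 minus HB9 on the log2(RPKM + 1) scale, given as estimate ± SE from limma with 3 libraries per group. This scale understates differences of genes near 0. A gene passed the test when its adjusted p (limma, two-sided, Benjamini-Hochberg over 18269 genes) was under 0.05. The libraries had been scaled to totals of 15104446 to 28195798 reads, and each held 15021 to 16514 genes at 1 RPKM or more. Within the groups, the median SD of a gene on the log2 scale was 0.508 in the Opn4 crush libraries and 0.337 in the HB9 crush libraries, and Opn4 crush replicate 1 lay apart from the other 2 Opn4 libraries on the second principal component of the 6 (91 against -65.8 and -38.1).

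After crush, Opn4 cells held more of 936 of the 18269 tested genes (5.12%) and less of 1389 (7.6%), which is 12.7% in all. Of these, 396 were higher and 517 lower by more than 4-fold. The median difference over all tested genes was -0.12, so that part of the excess of lower calls depended on scaling: the higher share of the calls was 40.3% as deposited, 44.2% after each library was shifted to the same median and 49.5% after quantile normalization. Without Opn4 crush replicate 1, which lay apart, 1940 genes passed, 1615 of them among the 2325. Without HB9 crush replicate 1 the count was 1356, and without HB9 crush replicate 3 it was 1391. The 3 Opn4 and 3 HB9 libraries did not overlap for 2300 of the 2325, and for 30.4% of all tested genes.

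Markers of both classes still separated the libraries after crush. Of 11 tested ipRGC markers, 10 were higher in Opn4 cells and none lower, against 5.12% and 7.6% of all genes, with a median difference of 4.93. Melanopsin itself (Opn4; ENSMUSG00000021799, chromosome 14, 34590618 to 34600142 in mm10) was at 1433, 1335 and 1313 RPKM in the Opn4 libraries and at 19.6, 24.3 and 1.82 RPKM in the HB9 libraries. The groups did not overlap, although the HB9 libraries spread over a wide range, and the difference was 6.90 ± 0.90 (adjusted p = 0.000345). Eomes, a T-box transcription factor that maintains ipRGCs, was at 200.2, 222 and 239 RPKM against 6.88, 7.9 and 9.45 RPKM, a difference of 4.61 ± 0.32 (adjusted p = 4.31e-06). The T-box factor Tbx20 (5.84), the G protein subunit Gna14 (5.78), neuromedin B (Nmb, 5.67) and the Ras activator Rasgrp1 (5.00) also passed. The cation channels Trpc7 (4.93) and Trpc6 (4.65) passed too.

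The ooDSGC markers were lower in Opn4 cells for 4 of 7 tested genes, against 7.6% of all genes, with none higher and a median of -2.18. Cartpt, a peptide precursor, was at 141, 155 and 81.9 RPKM in Opn4 cells and 1364, 5898 and 6395 RPKM in HB9 cells, a difference of -4.93 ± 0.45 (adjusted p = 2.48e-05). HB9 crush replicate 1 was well under the other 2, yet above every Opn4 library. Mnx1, whose promoter drives the green reporter, was listed at 0 in all 3 Opn4 crush libraries and at 2.96, 1.13 and 3.06 RPKM in the HB9 crush libraries, far under the 20.9, 41.7 and 34 RPKM of the HB9 sham libraries. Its difference was -1.70 ± 0.43 (adjusted p = 0.0201), and the call ended without HB9 crush replicate 1 or replicate 3 (adjusted p up to 0.0831). The genome organiser Satb1 differed by -2.55 ± 0.33 (adjusted p = 0.00034). The list count was 2 without HB9 crush replicate 1 or replicate 3.

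Of 19 general ganglion cell genes 9 passed, against 12.7% of all genes, and 10 did not. The RNA-binding protein Rbpms was at 103, 127 and 115 RPKM in Opn4 cells and 98.9, 90.3 and 122 RPKM in HB9 cells, with overlapping libraries and a difference of 0.16 ± 0.16 (adjusted p = 0.589). The list had 3 higher and 6 lower genes, with a median of -0.21. The lower ones included the vesicular glutamate transporter Slc17a6, at 155, 231 and 258 against 896, 769 and 945 RPKM (-2.04 ± 0.19, adjusted p = 2.41e-05), and the POU factors Pou4f3 (-4.84) and Pou4f1 (-2.61). Ebf3, a transcription factor, was higher by 3.38 ± 0.41 (adjusted p = 0.000209).

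**Figure D1:**
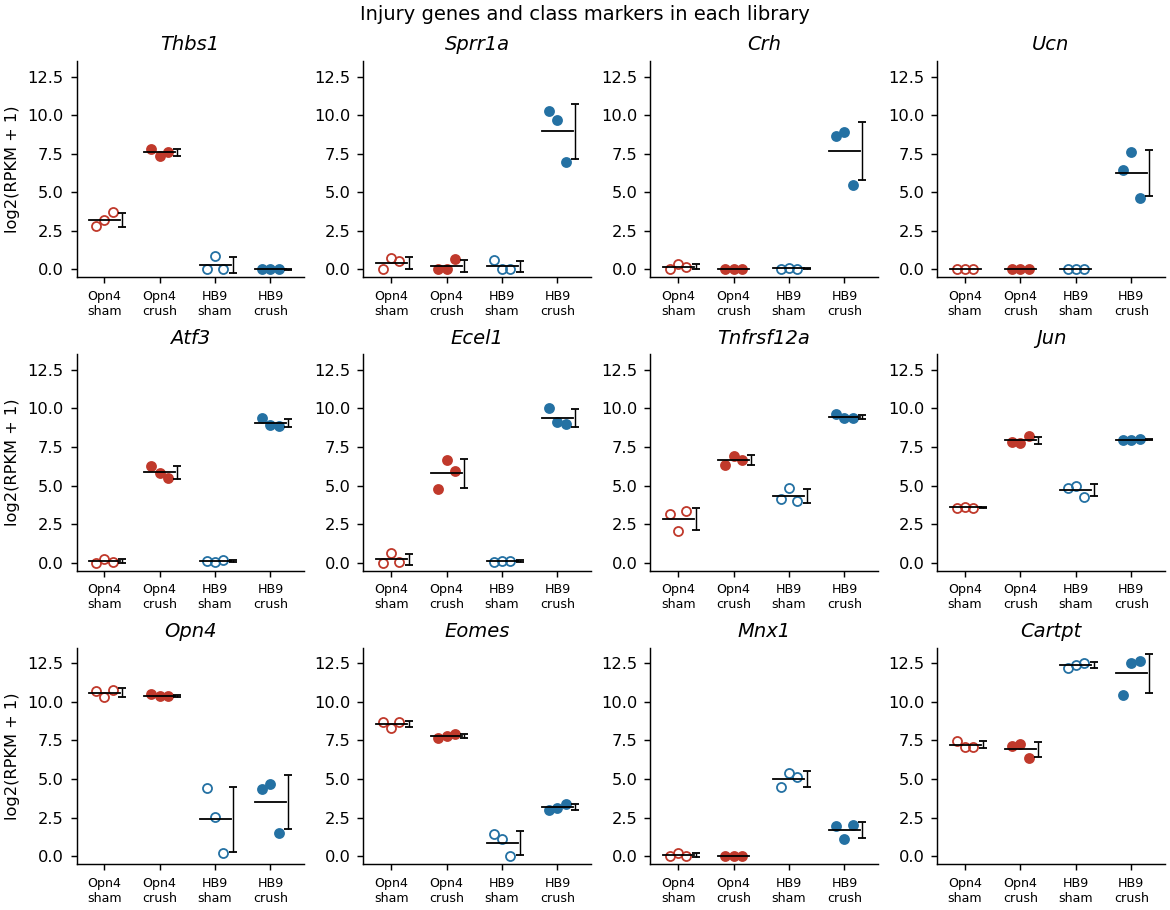
Levels of 12 genes as log2(RPKM + 1) in each of the 12 libraries, open circles after sham surgery and filled circles after crush, red for Opn4 and blue for HB9 cells; lines are group means and bars the SD of 3 libraries. Thbs1 is high in the Opn4 crush libraries alone, Sprr1a, Crh and Ucn in the HB9 crush libraries alone, and Jun lies at overlapping levels in both classes after crush.

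Rod transcripts differed between the groups. Summed over 15 rod markers, the Opn4 crush libraries held 1744 to 4173 RPKM and the HB9 crush libraries 731.6 to 1130 RPKM. Of these markers 3 passed the test as higher in Opn4 cells (Nr2e3, Cngb1 and Gnb1), against 5.12% of all genes. The median was 1.29 over the list, and none was at 0 in all 6 libraries. The mean rod level, as log2(RPKM + 1), was 6.81, 5.94 and 5.55 in Opn4 and 4.97, 4.51 and 4.44 in HB9 crush replicates 1, 2 and 3, and in all 4 groups of the study it was highest in replicate 1 and lowest in replicate 3. With the replicate number as a block 11 of the 15 markers passed. When the mean rod level of each library was added to the model, 768 genes passed after crush instead of 2325, and 53 of the 131 named genes that had passed did so no longer. Because rod level and class run together in these libraries, the part of rod RNA in these differences cannot be told apart from that of class for those genes. Among genes whose call held whichever library was left out, the rod level ended those of Btg2, Cacna1h, Chrna4, Cycs, Dkk3, Dusp1, Fos, Hmox1, Junb, Lrp1, Nppa, Nr2e3, Nsdhl, Pou4f1, Psmb8, Rbpms2, Sdc1, Srebf2, Stx1a and Tubb4a, with adjusted p of 0.0504 to 0.206. The counts of the lists described below fell with it from 8 to 3 for injury transcription factors, from 9 to 5 for ganglion cell genes, from 11 to 7 for glycolysis, from 8 to 4 for cholesterol synthesis, from 11 to 3 for transmitter receptors, from 9 to 4 for transmitter release from 6 to 3 for guidance ligands and for trophic genes, from 5 to 3 for MHC class I presentation, from 4 to 2 for ooDSGC markers and from 4 to 0 for tubulins and stathmins. Thrombospondins, apoptosis regulators and the DLK and JNK cascade fell to 2, 0 and 0. For the stress response list the count was 15 of 30 instead of 17 and for the regeneration-associated effectors 11 of 22 instead of 13. No cone marker among 8 and no bipolar marker among 9 passed. Of 10 microglia and macrophage markers 7 were under 1 RPKM in all 6 libraries, and C1qa, C1qb, C1qc, Tyrobp and Ctss were listed at 0 throughout. Vascular and erythrocyte genes summed to at most 11.81 RPKM per list in any crush library. Among 10 amacrine markers 2 were higher in Opn4 cells, among them Gad2 (2.98), and among 6 Muller glia markers Dkk3 was higher (1.87) and Clu lower (-1.16). The calls of Gad2 and Clu each ended in 4 of the 12 fits that left out a library.

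Thbs1, Sprr1a and Crh were each measured after crush almost entirely in a single class. Thrombospondin-1 (Thbs1; ENSMUSG00000040152, chromosome 2, 118111876 to 118127133), a secreted matrix glycoprotein that binds integrins, syndecans and Cd47, was at 219.5, 166 and 191 RPKM in the Opn4 crush libraries. In the HB9 crush libraries it was at 0, 0 and 0.0124 RPKM, so every Opn4 library lay far above every HB9 library. The difference was 7.58 ± 0.41 (adjusted p = 1.52e-06). After sham surgery the Opn4 libraries held 5.89, 8.03 and 12 RPKM and the HB9 libraries 0, 0.855 and 0 RPKM, and the class difference grew with crush by 4.66 ± 0.57 (adjusted p = 0.00434). In pools of 30 cells, a larger share of cells with a transcript and more transcript per cell cannot be told apart, here or below.

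Sprr1a (ENSMUSG00000050359, chromosome 3, 92483952 to 92485895), a small proline-rich protein of the cornified envelope that is also induced in axotomised sensory neurons, had the opposite pattern. It was at 0, 0 and 0.586 RPKM in the Opn4 crush libraries and at 1249.8, 814 and 122 RPKM in the HB9 crush libraries. The HB9 libraries were far from equal, with replicate 3 the lowest, but none came near the Opn4 libraries, and the difference was -8.74 ± 0.70 (adjusted p = 9.58e-06). Sham libraries of both classes stayed under 1 RPKM. Sprr1a thus met the filter for testing, 1 RPKM in 3 or more libraries, through the HB9 crush libraries alone. Its lack of overlap therefore followed in part from the filter. The change of the class difference with crush was -8.98 ± 0.99 (adjusted p = 0.00263).

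Corticotropin-releasing hormone (Crh; ENSMUSG00000049796, chromosome 3, 19693401 to 19695396) was listed at 0 in all 3 Opn4 crush libraries and at 398, 474 and 43.7 RPKM in the HB9 crush libraries, a difference of -7.67 ± 0.71 (adjusted p = 2.62e-05). Urocortin (Ucn), a related peptide that acts on the same receptors, was likewise listed at 0 in every Opn4 crush library and at 85.1, 196 and 23.9 RPKM in HB9 cells (-6.23 ± 0.60, adjusted p = 3.59e-05). Both peptides were lowest in HB9 crush replicate 3, as Sprr1a was. Ucn was listed at 0 in all 6 sham libraries, and Crh was under 1 RPKM there. Like Sprr1a, both peptides met the filter for testing through the HB9 crush libraries alone. Crhbp, which binds both peptides outside the cell, was lower in Opn4 cells as well, at 8.8, 0.131 and 3.73 against 273, 186 and 351 RPKM (-6.13 ± 0.67, adjusted p = 8.91e-05), but its class difference was -7.88 after sham and did not pass the test of change with crush (1.75 ± 0.94, adjusted p = 0.473). On reads recovered from the RPKM values and tested with limma voom, the differences of Sprr1a (adjusted p = 0.0983) and Crh (adjusted p = 0.0652) no longer passed, while those of Thbs1 and Ucn did.

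Promoter sequences of Sprr1a and Ucn are shown because both genes were measured after crush in HB9 libraries and hardly or not in Opn4 libraries, and each holds a match for a factor family of the injury response. They are the 250 bases before the annotated start in RefSeq (GRCm38.p6, the assembly of mm10), written 5′ to 3′ on the gene's strand. Capitals mark the AP-1 motif TGANTCA, bound by Jun and Fos proteins, or the cAMP response element TGACGTCA, both searched on both strands.
Sprr1a (chr3:92485882-92486131, minus strand): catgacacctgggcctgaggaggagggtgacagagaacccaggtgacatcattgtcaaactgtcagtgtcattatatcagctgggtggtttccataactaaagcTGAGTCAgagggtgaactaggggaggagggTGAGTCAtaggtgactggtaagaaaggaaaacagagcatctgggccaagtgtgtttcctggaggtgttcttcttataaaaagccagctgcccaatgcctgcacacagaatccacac
Ucn (chr5:31138896-31139145, minus strand): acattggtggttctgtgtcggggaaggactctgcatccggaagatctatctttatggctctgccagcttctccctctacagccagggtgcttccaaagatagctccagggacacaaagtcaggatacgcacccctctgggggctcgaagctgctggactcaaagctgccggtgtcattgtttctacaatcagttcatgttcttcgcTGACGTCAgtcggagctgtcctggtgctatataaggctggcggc
The Sprr1a matches start 146 and 116 bases before the gene's start, and the Ucn match 44 bases before. Among 27025 promoters of that length, 6.87% held the AP-1 motif and 1.62% the cAMP response element. Over the 846 promoters of genes lower in Opn4 cells the shares were 5.44% and 2.6%, over the 614 promoters of genes higher in Opn4 cells 5.37% and 2.93%, and over the 10345 promoters of tested genes 4.07% and 2.72%. A match describes letters in this window and is no measurement of binding.

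Several transcription factors of the axon injury response differed between the classes, and others did not pass the test. Atf3, a stress-induced bZIP factor, was at 77.9, 56.4 and 43.4 RPKM in Opn4 cells and 661, 486 and 473 RPKM in HB9 cells after crush, against at most 0.2 RPKM in any sham library. Every Opn4 crush library thus lay above every sham library and under every HB9 crush library, with a class difference of -3.19 ± 0.31 (adjusted p = 4.43e-05). That difference had changed with crush by -3.18 ± 0.44 (adjusted p = 0.00742), a call that did not hold with voom on recovered reads (adjusted p = 0.616). Jun, its frequent partner, was at 223, 219 and 294 against 253, 243 and 258 RPKM, with overlapping libraries and a difference of -0.05 ± 0.21 (adjusted p = 0.916). Of 22 injury transcription factors tested, 4 were lower in Opn4 cells and 4 higher, against 7.6% and 5.12% of all genes. Their median was -0.05, against -0.12 over all genes. The lower ones were Atf3, Ddit3 (-2.42), Atf4 (-2.08) and Cebpb (-1.55), and the higher ones were Junb (2.47), Fos (2.10), Klf6 (0.90) and Jund (0.75). Fos, an immediate early gene, was at 208, 247 and 417 RPKM in Opn4 cells and 36.2, 103 and 70.9 RPKM in HB9 cells. After sham Junb differed by 2.57 (adjusted p = 0.00471), and Fos by 1.08, which did not pass (adjusted p = 0.156). For neither did the change with crush pass (adjusted p = 0.972 for Junb and 0.552 for Fos). Sox11, which promotes axon growth in some ganglion cells, was at 0.946, 0 and 5.4 against 7.52, 3.63 and 12.4 RPKM and did not pass (-1.80 ± 0.65, adjusted p = 0.0917).

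Upstream of these factors, 3 of 17 genes of the DLK and JNK cascade passed, against 12.7% of all genes. Of them 2 were higher and 1 lower in Opn4 cells, with a median of 0.06. The kinase DLK itself (Map3k12) was at 36.2, 47.6 and 45.3 against 43.5, 50 and 47.9 RPKM, and its difference of -0.14 ± 0.26 (adjusted p = 0.785) did not pass. The phosphatase Dusp1, which switches off MAP kinases, was higher in Opn4 cells, at 299, 445 and 389 against 132, 152 and 153 RPKM (1.35 ± 0.27, adjusted p = 0.00571). After sham Dusp1 differed by 1.60, and its change with crush did not pass (adjusted p = 0.852). The count was 1 without any single HB9 crush library and without Opn4 crush replicate 2, and 0 with the rod level in the model.

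Genes that follow the injury response in regenerating neurons were mostly lower in Opn4 cells where they differed. Of 22 tested effectors 10 were lower and 3 higher, with a median of -0.42, against 7.6% and 5.12% of all genes. Over the 24 other settings tried the lower count ran from 6 to 10. Ecel1, an endopeptidase-like membrane protein induced by nerve damage, was at 26.5, 101 and 59.7 RPKM in Opn4 cells and 1047, 548 and 509 RPKM in HB9 cells (-3.58 ± 0.46, adjusted p = 0.000298). Tnfrsf12a (Fn14), a receptor that promotes neurite outgrowth, was at 78.6, 123 and 99.3 against 785, 676 and 656 RPKM (-2.82 ± 0.33, adjusted p = 0.000164). Both classes therefore held these transcripts after crush, at unequal levels and with no overlap. After sham, Ecel1 was under 1 RPKM in every library. Tnfrsf12a was lower in Opn4 cells after sham too (-1.46, adjusted p = 0.0121), and its change with crush did not pass (adjusted p = 0.233). For 6 of the 22 the class difference changed with crush, all toward HB9 cells, against 0.525% of all genes that changed in that direction. This count was 1 without HB9 crush replicate 1 and also 1 without HB9 sham replicate 2.

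Others of the group were measured almost only in HB9 cells. The muscle LIM protein Csrp3 was at 0.119, 0.0567 and 0 against 60.6, 98.7 and 36.7 RPKM (-5.86 ± 0.75, adjusted p = 0.000292). The urokinase receptor Plaur was at 0, 3.04 and 0 against 42.6, 22.7 and 10.1 RPKM (-3.82 ± 0.60, adjusted p = 0.00124), and the hyaluronan receptor Cd44 was listed at 0 in the Opn4 crush libraries and at 8.52, 9.98 and 4.25 RPKM in the HB9 crush libraries (-3.03 ± 0.41, adjusted p = 0.000438). Haem oxygenase 1 (Hmox1) differed by -4.46, and the growth arrest gene Gadd45a by -2.94. Hmox1 differed by -2.52 after sham as well (adjusted p = 0.0385), and its change with crush did not pass (adjusted p = 0.463). Higher in Opn4 cells were the laminin-binding integrin subunit Itga7, at 31.6, 31.8 and 28.6 against 1.26, 2.8 and 0.348 RPKM (3.81 ± 0.54, adjusted p = 0.000614), the adhesion molecule Chl1 (3.73) and the growth cone protein Marcks (1.20). Gap43, a growth cone protein often used as a regeneration marker, was at 456, 489 and 589 against 579, 596 and 422 RPKM, and its difference of -0.05 ± 0.18 (adjusted p = 0.894) was far from the threshold.

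The list with the most calls was that of the integrated stress response and the unfolded protein response. Of 30 listed genes, all of them tested, 16 were lower in Opn4 cells and 1 was higher, where 7.6% of all genes were lower. The median difference was -1.67 after crush and -0.08 after sham, where 7 were lower and 7 higher. Over the 24 other settings the lower count stayed between 14 and 18. All gene lists were chosen with earlier results of these data known, so counts set against the share of all genes are descriptive.

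At the centre of this group are the transcription factors Atf4 and Ddit3. Atf4 was at 99.7, 175 and 129 RPKM in Opn4 cells and 613, 506 and 562 RPKM in HB9 cells (-2.08 ± 0.23, adjusted p = 9.91e-05). Ddit3, a proapoptotic factor downstream of Atf4, was at 67.3, 194 and 90.9 against 611, 529 and 578 RPKM (-2.42 ± 0.33, adjusted p = 0.000451). Ddit3 shares its locus with Mars on the other strand, whose mean over the 12 libraries was 91.11 RPKM, and since counting by strand is not stated their reads cannot be told apart. The groups did not overlap for either factor.

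Targets of Atf4 in amino acid supply were lower in Opn4 cells too. Phgdh, which opens serine synthesis, was at 2.48, 19.1 and 18.5 RPKM in Opn4 cells and 259, 289 and 226 RPKM in HB9 cells (-4.54 ± 0.64, adjusted p = 0.000615). Psat1, the next enzyme, was at 24.9, 31.5 and 35.4 against 145, 144 and 198 RPKM (-2.37 ± 0.43, adjusted p = 0.00355). Asparagine synthetase (Asns) was at 244, 172 and 176 against 1033, 899 and 830.4 RPKM (-2.23 ± 0.19, adjusted p = 1.23e-05). All of these enzymes make amino acids, and in each the lowest HB9 library exceeded the highest Opn4 library.

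Other Atf4 targets were Chac1, which degrades glutathione, at 16.9, 29.6 and 34.9 against 238, 203 and 210.4 RPKM (-3.01 ± 0.30, adjusted p = 5.41e-05), and the mTORC1 inhibitor Sesn2, at 31.7, 19.2 and 38.9 against 161, 138 and 125 RPKM (-2.25 ± 0.28, adjusted p = 0.000241). The tRNA synthetases Wars (-2.38), Gars (-1.99), Nars (-1.96), Aars (-1.44) and Sars (-1.39) were all lower in Opn4 cells. Slc3a2 and Slc7a5, which together form an amino acid exchanger, differed by -1.40 and -1.0. The single higher gene was the endoplasmic reticulum chaperone Hsp90b1, at 308, 356 and 329 against 145, 147 and 126 RPKM (1.25 ± 0.14, adjusted p = 9.40e-05). Trib3, at 0, 22.8 and 3.65 against 44, 43.1 and 38.4 RPKM, did not pass (adjusted p = 0.0556).

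**Figure D2:**
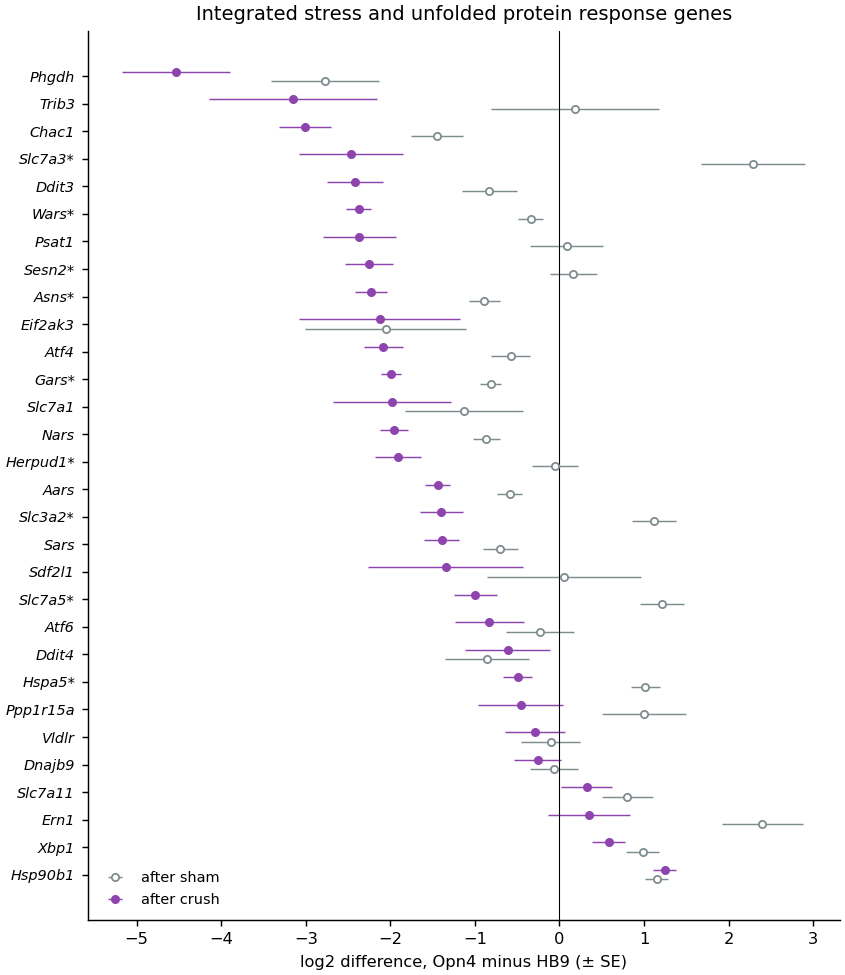
Class difference (Opn4 minus HB9, log2 scale, bars ± SE) of the 30 integrated stress and unfolded protein response genes after sham (open grey) and after crush (filled purple); an asterisk marks genes whose difference changed with crush at an adjusted p under 0.05. After crush 16 of the 30 lie past the threshold on the HB9 side and Hsp90b1 alone on the Opn4 side.

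For 9 of these 30 genes the class difference itself changed with crush, all toward HB9 cells, against 0.525% of all genes that changed in that direction. Slc3a2 was at 119, 65.7 and 67.4 RPKM in Opn4 and 46.5, 35.8 and 29.6 RPKM in HB9 sham libraries, and after crush at 125, 185 and 123 RPKM in Opn4 and 374, 348 and 402 RPKM in HB9 libraries, so that the class with the higher level switched (-2.51 ± 0.36, adjusted p = 0.00763). Wars went from a difference of -0.34 after sham to -2.38 after crush (-2.04 ± 0.20, adjusted p = 0.00191). Asns (-1.34), Gars (-1.18), Sesn2 (-2.42), Herpud1 (-1.85), Hspa5 (-1.51), Slc7a5 (-2.21) and Slc7a3 (-4.76) were the others. Atf4 itself (-1.50 ± 0.32, adjusted p = 0.0547) and Ddit3 (-1.59 ± 0.46, adjusted p = 0.158) did not pass this test. Nor did Phgdh (-1.76 ± 0.90, adjusted p = 0.446) or Chac1 (-1.56 ± 0.43, adjusted p = 0.131). Both Phgdh and Chac1 were lower in Opn4 cells after sham too (-2.78 and -1.45). The count was 5 without HB9 crush replicate 1 and also 5 without the intensity trend.

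Promoters of Atf3, Asns and Chac1 are shown because they hold a match for the composite site of C/EBP and ATF factors, TGATGNAA, which Atf4 and Ddit3 can bind. Each is again the 250 bases before the RefSeq start (GRCm38.p6), 5′ to 3′ on the gene's strand, with the match in capitals, read on either strand.
Atf3 (chr1:191183334-191183583, minus strand): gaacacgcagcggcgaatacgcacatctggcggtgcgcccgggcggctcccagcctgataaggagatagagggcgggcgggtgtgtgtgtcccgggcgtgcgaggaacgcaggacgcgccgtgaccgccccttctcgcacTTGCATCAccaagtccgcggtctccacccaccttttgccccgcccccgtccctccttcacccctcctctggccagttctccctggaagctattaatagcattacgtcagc
Asns (chr6:7693210-7693459, minus strand): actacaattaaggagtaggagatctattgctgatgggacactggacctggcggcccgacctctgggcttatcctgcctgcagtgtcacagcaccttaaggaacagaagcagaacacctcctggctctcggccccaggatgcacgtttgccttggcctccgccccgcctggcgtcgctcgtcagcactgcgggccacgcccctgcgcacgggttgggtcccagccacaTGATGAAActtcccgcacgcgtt
Chac1 (chr2:119350992-119351241, plus strand): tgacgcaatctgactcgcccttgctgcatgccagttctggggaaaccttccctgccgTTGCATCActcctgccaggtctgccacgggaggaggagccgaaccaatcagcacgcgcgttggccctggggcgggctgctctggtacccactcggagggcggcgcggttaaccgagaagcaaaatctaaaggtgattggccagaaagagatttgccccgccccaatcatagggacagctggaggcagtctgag
The matches start 110, 23 and 193 bases before the start. Of 25 stress list genes with a promoter in the table, 6 held the motif (24%), against 3.53% of 27025 promoters and 1.91% of the 10345 promoters of tested genes. Among promoters of genes lower in Opn4 cells 2.96% held it, and 2.77% among those of genes higher in Opn4 cells. No test was made of these shares.

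Of 17 apoptosis regulators 4 were lower in Opn4 cells and none higher, against 7.6% and 5.12% of all genes, with a median of -0.79, and between 0 and 4 passed under the other settings. Of the 4, the respiratory chain carrier cytochrome c (Cycs), which activates caspases once released, was at 46.7, 71.2 and 79.3 against 127, 156 and 143 RPKM (-1.13 ± 0.20, adjusted p = 0.00324). The calls of Apaf1, Bax and Diablo each ended in at least 6 of the 12 fits that left out a library. The proapoptotic BH3 genes Bbc3 (4.28, 9.34 and 7.44 against 13, 16.7 and 31.7 RPKM), Bcl2l11 (10, 4.71 and 4.69 against 15, 9.56 and 19.8 RPKM) and Hrk (14.7, 7.91 and 7.95 against 12.3, 15.8 and 9.74 RPKM) did not pass. Of 11 p53 targets 2 were lower, Gadd45a and Sesn2, and the antiproliferative gene Btg2 was higher (2.30 ± 0.42, adjusted p = 0.00367). After sham Btg2 differed by 3.12, and its change with crush did not pass (adjusted p = 0.631).

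Thbs1 belongs to a list of 12 tested thrombospondins and their receptors. Of these 6 were higher in Opn4 cells and none lower, against 5.12% and 7.6% of all genes, with a median of 0.63. The heparan sulphate proteoglycans syndecan 2 (Sdc2), at 149, 125 and 186 against 28.6, 33.6 and 50.8 RPKM (2.02 ± 0.31, adjusted p = 0.00107), and syndecan 3 (Sdc3), at 85.1, 86.6 and 91.6 against 31, 34.3 and 28.1 RPKM (1.47 ± 0.28, adjusted p = 0.00462), were both higher. Syndecan 1 (Sdc1, 3.54), the endocytic receptor Lrp1 (1.94) and the chaperone Calr (0.62) made up the rest. Of the 12, Thbs1 alone changed its class difference with crush by the test, against 0.29% of all genes that changed toward Opn4 cells. With the rod level in the model 2 members passed after crush.

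Of 18 receptors of growth inhibitors, 5 were higher in Opn4 cells and none lower, against 5.12% and 7.6% of all genes, with a median of 0.37. The receptor tyrosine phosphatase Ptprs, which binds chondroitin sulphate proteoglycans of the scar, was at 383, 348 and 368 against 108, 81.4 and 134 RPKM (1.78 ± 0.19, adjusted p = 8.83e-05). Its relative Ptprf was at 32.8, 57.1 and 58.6 against 7.3, 7.84 and 3.34 RPKM (2.84 ± 0.42, adjusted p = 0.000879), and the semaphorin coreceptor Nrp2 at 20, 17.8 and 24.8 against 1.66, 1.26 and 2.69 RPKM (2.95 ± 0.38, adjusted p = 0.000308). Lingo1 (1.34) and Rtn4rl1 (0.95), parts and relatives of the Nogo receptor complex, were the others.

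Guidance ligands went both ways, with 4 of 21 lower and 2 higher in Opn4 cells, against 7.6% and 5.12% of all genes. Sema3e, a repulsive ligand, was under 0.1 RPKM in all Opn4 crush libraries and at 38.7, 27.4 and 40.6 RPKM in HB9 cells (-5.13 ± 0.35, adjusted p = 4.31e-06). Efna1 was listed at 0 in the Opn4 crush libraries and at 23.9, 16.1 and 18.4 RPKM in HB9 cells (-4.33 ± 0.55, adjusted p = 0.000276). After sham the differences were -6.25 and -2.94. Without HB9 crush replicate 3, 3 guidance ligands passed.

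Of 26 tested trophic factors, cytokine receptors and mTOR genes, 4 passed on the Opn4 side and 2 on the HB9 side, against 5.12% and 7.6% of all genes. Without HB9 crush replicate 3 this count was 3 in all. Insulin-like growth factor 1 (Igf1), which has been used to promote ganglion cell regrowth, was at 155, 117 and 138 RPKM in Opn4 cells and 9.75, 9.59 and 8.08 RPKM in HB9 cells (3.76 ± 0.45, adjusted p = 0.000177). Igf2 was listed at 0 in the HB9 crush libraries and at 6.69, 2.19 and 12.7 RPKM in Opn4 cells (2.80 ± 0.50, adjusted p = 0.0032). The neurotrophin-3 receptor Ntrk3 was at 19.5, 17.1 and 27 against 2.33, 1.87 and 2.29 RPKM (2.79 ± 0.42, adjusted p = 0.000921). After sham the differences of Igf1, Igf2 and Ntrk3 were 4.66, 3.88 and 3.45, and none of them passed the test of change with crush. Igf1 is also on the list of ipRGC markers. The cytokine signalling inhibitor Socs3 (2.73) passed as well, but not without HB9 crush replicate 3 (adjusted p = 0.0578), and Lifr (-1.16) and Rheb (-0.64) were lower.

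**Figure D3:**
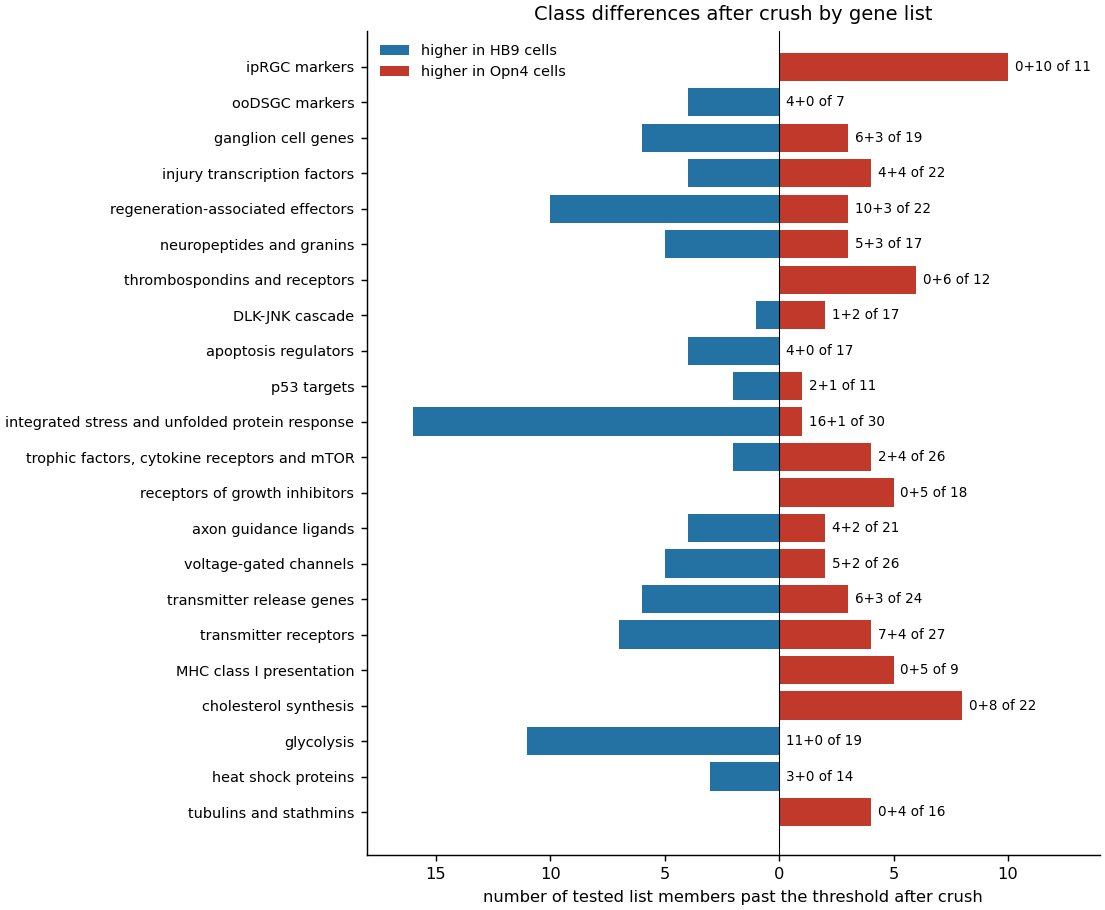
Number of tested members past the threshold after crush in each of 22 gene lists, to the left those higher in HB9 and to the right those higher in Opn4 cells; labels give both counts and the number tested. The longest bars toward HB9 cells are the stress response (16 of 30), glycolysis (11 of 19) and the regeneration-associated effectors (10 of 22), and toward Opn4 cells the ipRGC markers (10 of 11) and cholesterol synthesis (8 of 22).

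No member of the glycolysis or cholesterol synthesis list passed the test of change with crush, though many differed between the classes. Of 19 glycolysis genes 11 were lower in Opn4 cells and none higher, against 7.6% and 5.12% of all genes. The median was -0.84 after crush and -1.01 after sham, where 14 were lower. Aldolase C (Aldoc) was at 106, 166 and 166 against 747, 655 and 480.2 RPKM (-2.10 ± 0.33, adjusted p = 0.00127), and phosphoglycerate kinase (Pgk1) at 144, 221 and 213 against 537, 493 and 448 RPKM (-1.37 ± 0.17, adjusted p = 0.000238). Of 22 cholesterol synthesis genes 8 were higher in Opn4 cells and none lower, with a median of 0.54. The isomerase Idi1 was at 73.3, 65 and 67.4 against 8.88, 7.89 and 25.7 RPKM (2.39 ± 0.35, adjusted p = 0.000762). Without HB9 crush replicate 1, 5 of the 22 passed.

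Of 9 genes of MHC class I presentation 5 were higher in Opn4 cells and none lower, against 5.12% and 7.6% of all genes. The median was 1.52 after crush and 1.83 after sham. The immunoproteasome subunit Psmb8 was at 14, 9.84 and 7.12 against 1.26, 0 and 0 RPKM (3.06 ± 0.46, adjusted p = 0.000947). H2-K1 was at 87.3, 229.7 and 170.2 against 21, 29.1 and 18.3 RPKM (2.70 ± 0.39, adjusted p = 0.000663), but it belongs to a family of near-identical genes whose reads the counting could split. Of 14 heat shock genes 3 were lower, among them the small heat shock protein Hspb8 (-2.20 ± 0.33, adjusted p = 0.000847). Of 16 tubulins and stathmins 4 were higher, and 17 of the 24 other settings moved that count by more than 1.5 times.

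Genes of excitability and transmission differed in both directions. Of 26 voltage-gated channel genes, 5 were lower and 2 higher in Opn4 cells after crush, against 13 lower and 1 higher after sham. Over all genes 7.6% were lower and 5.12% higher after crush, and 5.93% and 5.82% after sham. The potassium channel Kcna1 was at 3.41, 2.59 and 0.427 against 41.7, 37.7 and 58.1 RPKM (-4.03 ± 0.45, adjusted p = 0.000108). The sodium channel subunit Scn4b was listed at 0 in all Opn4 libraries and at 5.27, 6.5 and 8.2 RPKM in HB9 crush libraries (-2.92 ± 0.46, adjusted p = 0.00131). Of the 26, 2 passed the test of change with crush, both toward Opn4 cells, against 0.29% of all genes that changed in that direction. For the others the difference between these counts is not itself a tested change.

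Of 24 transmitter release genes 6 were lower and 3 higher after crush, against 11 and 1 after sham. Over all genes 7.6% were lower and 5.12% higher after crush. Complexin 1 (Cplx1), which clamps and promotes vesicle fusion, was at 131, 214 and 173 against 1119, 1028 and 999.6 RPKM (-2.62 ± 0.19, adjusted p = 4.66e-06). Vamp1 (-2.60) and Syt2 (-3.27), a vesicle protein and a calcium sensor of fast release, were lower as well, and the membrane fusion protein Stx1a was higher (2.46). Of 27 transmitter receptors 7 were lower and 4 higher after crush, against 9 and 3 after sham. The nicotinic subunit Chrna4 was at 65.7, 59.3 and 49.2 against 6.03, 6.49 and 2.46 RPKM (3.37 ± 0.67, adjusted p = 0.00571), and the AMPA receptor subunit Gria1 at 43.4, 50.8 and 43.4 against 2.46, 6.54 and 8.08 RPKM (2.92 ± 0.39, adjusted p = 0.000386). Without HB9 crush replicate 1 or replicate 3, 6 of the 27 passed.

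Another pair of nicotinic subunits differed less between the classes after crush than after sham. Chrna6 was at 0.105, 2.94 and 6.73 RPKM in Opn4 and 686, 693 and 593 RPKM in HB9 sham libraries, and after crush at 4.85, 12.9 and 13.8 RPKM in Opn4 and 54.8, 35.2 and 43 RPKM in HB9 libraries. The class difference went from -7.67 to -2.07, a change of 5.60 ± 0.80 (adjusted p = 0.00763). Chrnb3, which assembles with it, went from -6.98 to -2.06 (4.92 ± 0.89, adjusted p = 0.0255). The change of Chrnb3 did not pass in 7 of the 12 fits that left out a library (adjusted p up to 0.0779), nor with voom, and neither change passed with a pseudocount of 0.1 (0.065 for Chrna6). For both, every HB9 crush library lay under every HB9 sham library, and for Chrnb3 every Opn4 crush library lay above every Opn4 sham library. The class difference after crush depended on single libraries for both, since the call ended whichever of the 3 HB9 crush libraries was left out (adjusted p up to 0.106 for Chrna6 and 0.157 for Chrnb3).

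Beyond the lists, the 15 genes most in favour of Opn4 cells after crush included several ipRGC markers. The surface glycoprotein Cd24a led, at 656, 739 and 617 RPKM in Opn4 cells and 0.0474, 0.0196 and 0.0208 RPKM in HB9 cells (9.35 ± 0.52, adjusted p = 1.52e-06), with 8.93 after sham. After Thbs1 came gliomedin (Gldn, 7.24), Opn4, the natriuretic peptide precursor Nppb (6.80), the collagen chain Col9a1 (6.59) and the growth factor Bmp7 (6.18). Tbx20, Gna14, the sphingosine 1-phosphate receptor S1pr3 (5.73), the melanin-concentrating hormone receptor Mchr1 (5.67), Nmb, the leak potassium channel Kcnk2 (5.32), Nppa (5.06) and Rasgrp1 completed the 15 highest. Apart from Thbs1, none of these passed the test of change with crush, and Mchr1, at 20.5, 37.9 and 30.9 RPKM in Opn4 sham and 56.4, 101 and 62.7 RPKM in Opn4 crush libraries, came close (2.98 ± 0.64, adjusted p = 0.0531).

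Nppb was at 269, 344 and 324 RPKM in Opn4 cells after crush and at 114, 79.2 and 241 RPKM after sham, while among HB9 crush libraries replicate 1 alone held it (20.7, 0 and 0 RPKM). Nppa, its relative, was at 103, 92.9 and 42.2 against 0, 5.74 and 0.699 RPKM, with 19, 5.59 and 0 RPKM in the Opn4 sham libraries. Its difference after sham (1.98 ± 0.95, adjusted p = 0.218) did not pass, and neither did its change (3.08 ± 1.34, adjusted p = 0.356). An antisense gene at a mean of 16.82 RPKM overlaps Nppa, and their reads cannot be told apart.

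The lowest genes in Opn4 cells were a mixture of class genes and genes measured mostly in HB9 cells after crush. After Sprr1a and Crh came annexin A2 (Anxa2), a calcium-dependent membrane-binding protein, at 3.08, 0.148 and 0 against 139, 117 and 122 RPKM (-6.25 ± 0.47, adjusted p = 5.85e-06). HB9 sham libraries held it too (58.3, 60.6 and 53.1 RPKM). Crhbp, the calcium buffer Pvalb (-6.11), the RNA-binding protein Rbpms2 (-5.23) and the transcription factor Tfap2d (-6.22) were lower after sham as well. A pseudogene with a mean of 164.05 RPKM overlaps Tfap2d on the other strand. Xlr3c (-5.17) belongs to a multi-copy family and is uncertain, and its call ended without HB9 crush replicate 2 (adjusted p = 0.0523).

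Prss12, Crabp2 and Cdsn were measured mostly in the HB9 crush libraries. The synaptic protease Prss12 (neurotrypsin) was at 0, 0.0212 and 0 RPKM in Opn4 cells and 74.2, 65.7 and 51 RPKM in HB9 cells after crush (-5.99 ± 0.49, adjusted p = 1.01e-05). The retinoic acid binding protein Crabp2 was at 0, 2.92 and 0.322 against 70.7, 67.7 and 105 RPKM (-5.54 ± 0.52, adjusted p = 2.80e-05). Corneodesmosin (Cdsn), an adhesion protein of the epidermis, was listed at 0 in the Opn4 crush libraries and at 60.3, 27.3 and 36.3 RPKM in HB9 cells (-5.33 ± 0.48, adjusted p = 2.08e-05). Each of these 3 changed its class difference with crush, by -6.33, -5.81 and -4.82, but none of these changes passed with voom on recovered reads (adjusted p = 0.0567 for Prss12, 0.121 for Crabp2 and 0.179 for Cdsn), and those of Crabp2 and Cdsn did not pass with a pseudocount of 0.1. Annexin A3 (Anxa3), at 0 in all Opn4 libraries and 20.3, 98.9 and 74.2 RPKM in HB9 crush libraries, came close in that test (-4.35 ± 0.93, adjusted p = 0.0515).

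Cd68, a lysosomal glycoprotein of macrophages, was at 13, 0 and 0 RPKM in Opn4 cells and 92.9, 116 and 125 RPKM in HB9 cells (-5.53 ± 0.85, adjusted p = 0.00106). Gpnmb, another lysosomal membrane glycoprotein, was at 7.69, 4.17 and 2.87 against 66.8, 80.1 and 120.0 RPKM (-3.97 ± 0.62, adjusted p = 0.00121). Cd68 belongs to the list of 10 microglia and macrophage markers. Summed, that list was at 98.38 to 130.4 RPKM in the HB9 and 5.592 to 14.58 RPKM in the Opn4 crush libraries. In the HB9 sham libraries the sum was 3.167 to 4.203 RPKM. Its members C1qa, C1qb, C1qc, Tyrobp and Ctss were at 0 in all crush libraries, as given above. The cellular source of the Cd68 RNA was not tested.

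The comparison with sham libraries shows how much of the class difference after crush was there without injury. After sham, 2148 genes passed (11.8%, 5.82% higher and 5.93% lower in Opn4 cells), and 921 genes passed in both states with the same sign, which is 39.6% of the crush calls and 42.9% of the sham calls. The class difference changed with crush for 149 genes (0.816%), 53 toward Opn4 (0.29%) and 96 toward HB9 cells (0.525%). Of the 1391 genes called after crush and not after sham, 81 passed this test, 63 of them lower and 18 higher in Opn4 cells. For the other genes the data do not show that the class difference depends on injury. On recovered reads with limma voom, 23 of the 34 named genes with a called change did not pass, among them Thbs1 (adjusted p = 0.239), Sprr1a (0.468), Crh (0.41), Ucn (0.151) and Eomes (0.121). The split of the 149 depended on scaling, with 35.6% toward Opn4 cells as deposited, 49.3% after the median shift and 45.6% after quantile normalization.

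**Figure D4:**
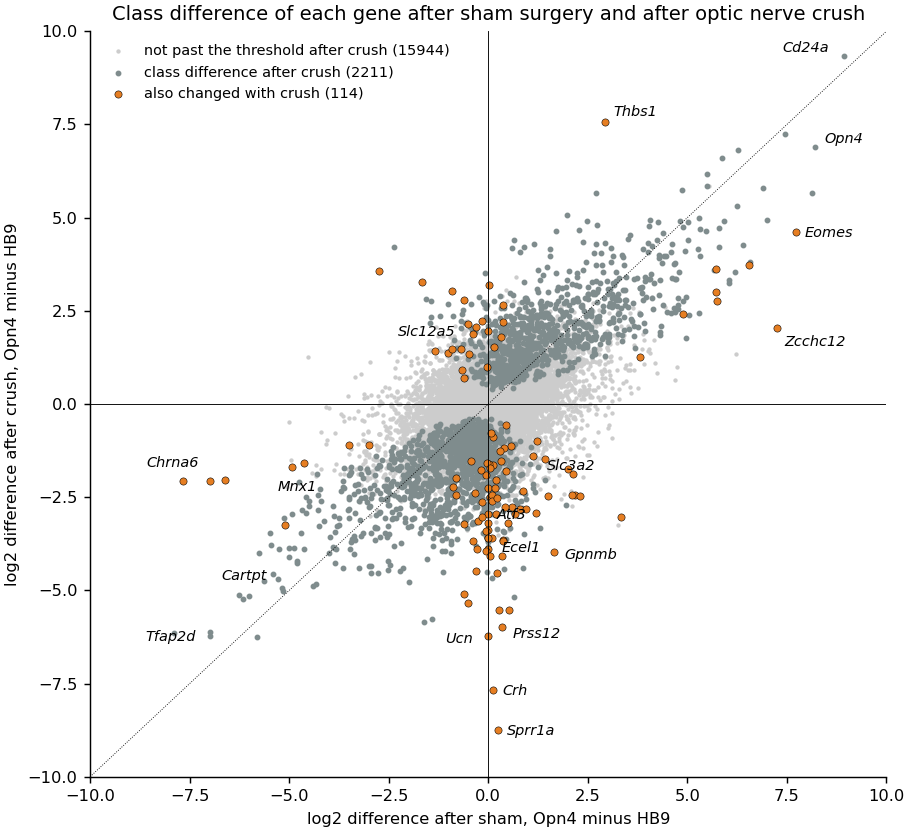
Class difference of each of 18269 tested genes after sham (horizontal) and after crush (vertical), both Opn4 minus HB9 on the log2 scale; dark points passed the test after crush, orange points also changed with crush, and the dotted line marks equal differences. The median change of the class difference with crush was -1.12 over the ipRGC markers and 0.96 over the ooDSGC markers. Eomes lies below the dotted line and Mnx1 and Thbs1 above it. Sprr1a, Crh, Ucn and Prss12 lie near 0 after sham and far below 0 after crush.

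Of the 11 tested ipRGC markers, 2 changed with crush, both toward HB9 cells, against 0.525% of all genes. Of the 7 tested ooDSGC markers 1 changed, toward Opn4 cells, against 0.29% of all genes. That gene was Mnx1 (3.24 ± 0.60, adjusted p = 0.0281), whose call ended in 6 of the 12 fits that left out a library. The class difference of Eomes fell from 7.73 to 4.61 (-3.11 ± 0.46, adjusted p = 0.00839), with 422, 322 and 408 RPKM in Opn4 and 1.68, 1.19 and 0 RPKM in HB9 libraries after sham. The peptide precursor Adcyap1 (PACAP), through which ipRGCs signal to the brain, was at 616, 442 and 769 RPKM in Opn4 and 38.2, 49.9 and 38.2 RPKM in HB9 libraries after sham, and after crush at 918, 519 and 701 RPKM in Opn4 and 323, 292 and 263 RPKM in HB9 libraries (-2.55 ± 0.33, adjusted p = 0.005). For Eomes and Adcyap1 every HB9 crush library lay above every HB9 sham library. For Eomes every Opn4 crush library also lay under every Opn4 sham library. Zcchc12, a transcriptional coactivator, was at 4.79, 0.0178 and 0 RPKM in HB9 cells after sham and 84.2, 120.2 and 138 RPKM after crush, and its class difference went from 7.26 to 2.03 (-5.23 ± 0.73, adjusted p = 0.00742). Its call after crush ended without Opn4 crush replicate 3 and without HB9 crush replicate 1 or replicate 2 (adjusted p up to 0.0869).

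For 13 genes the class difference passed in both states with opposite signs. The potassium and chloride cotransporter Slc12a5 (KCC2), which keeps neuronal chloride low, was at 78.5, 106 and 99.4 RPKM in Opn4 and 157, 183 and 197 RPKM in HB9 sham libraries. After crush the Opn4 libraries held 94.7, 107 and 80.5 RPKM and the HB9 libraries 30.6, 37.2 and 31.6 RPKM. Opn4 libraries overlapped between sham and crush and every HB9 crush library lay under every HB9 sham library, so the difference went from -0.92 to 1.48 (2.39 ± 0.27, adjusted p = 0.00263). The serotonin receptor Htr1d did the same. It was at 20.5, 30.9 and 28.3 RPKM in Opn4 and 52.5, 50 and 60.2 RPKM in HB9 libraries after sham, and at 27.5, 25.9 and 42 RPKM in Opn4 and 13.9, 11.6 and 9.15 RPKM in HB9 libraries after crush (2.39 ± 0.39, adjusted p = 0.0147).

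Lix1 and BC022960, the latter annotated as a pseudogene, crossed the other way. Lix1 was at 29.1, 8.0 and 8.9 RPKM in Opn4 and 2.08, 2.39 and 2.26 RPKM in HB9 sham libraries and after crush at 16.3, 7.7 and 4.62 RPKM in Opn4 and 52.4, 61.5 and 38.9 RPKM in HB9 libraries (-4.54 ± 0.72, adjusted p = 0.0127). BC022960 was at 12.1, 9.99 and 15.3 RPKM in Opn4 and 4.03, 1.92 and 0.721 RPKM in HB9 libraries after sham, and at 0.477, 0 and 0 RPKM in Opn4 and 5.62, 4.3 and 5.81 RPKM in HB9 libraries after crush (-4.62 ± 0.65, adjusted p = 0.00742). HB9 crush libraries held the most Lix1 of all groups. The calls after crush of Slc7a3, Sstr2, Flrt3, Pdzd7 and Nrep, which also had opposite signs, each ended when at least 2 single libraries were left out in turn, with adjusted p up to 0.152, and those of Slc3a2, Slc12a5, Htr1d, Lix1 and BC022960 did not.

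**Figure D5:**
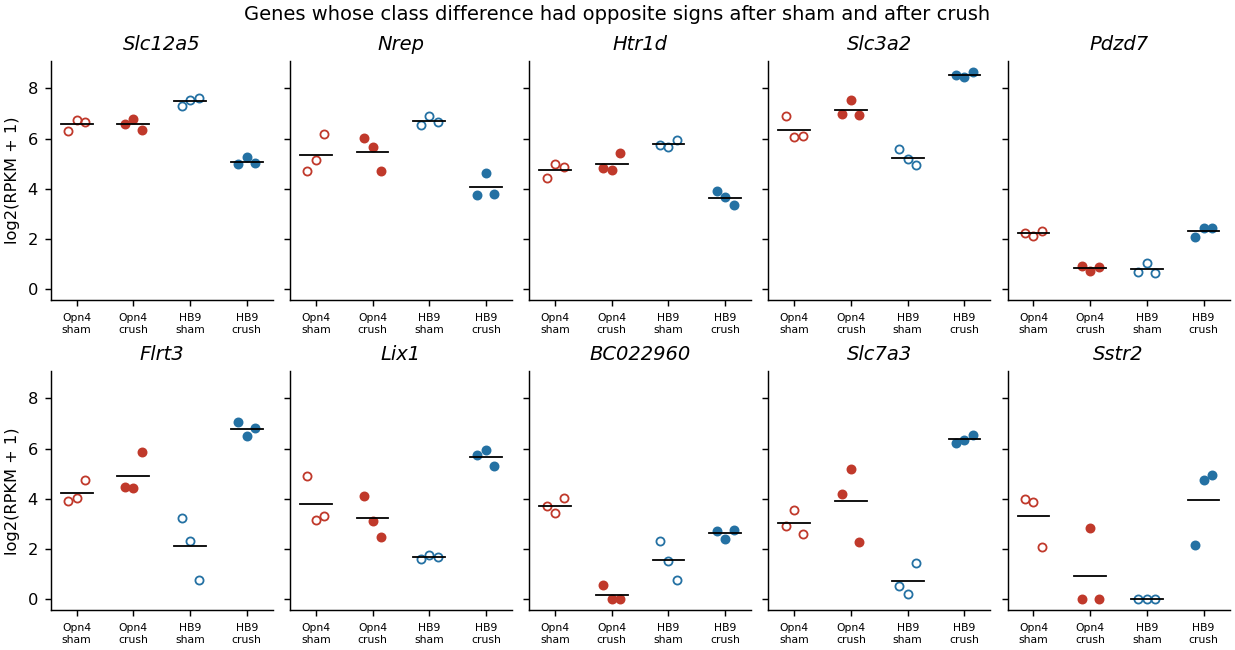
Levels as log2(RPKM + 1) in each library of 10 genes whose class difference passed the test after sham and after crush with opposite signs, open circles after sham and filled circles after crush, with lines at group means of 3 libraries. Slc12a5, Nrep and Htr1d are highest in HB9 sham libraries and lowest in HB9 crush libraries, and Slc3a2, Flrt3, Lix1 and Slc7a3 are highest in HB9 crush libraries.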

How the data were processed

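RNA of 12 pools of hand-picked mouse ganglion cells was amplified and sequenced. The authors deposited 1 RPKM value per gene and library for 38887 Ensembl genes. Per the submitters' processing notes, TopHat2 2.0.11, Bowtie, edgeR 3.14.0 and build mm10 were used, and the role of each, the counting and the gene lengths are not given in the sources used here. RPKM depends on those lengths and totals, and amplification from 30 cells adds noise at low values.

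The 18269 genes that reached 1 RPKM in 3 or more libraries were tested as log2(RPKM + 1). Some, among them Sprr1a, Crh, Ucn and Cd86, reached it in a single crush group alone. For such genes the separation of that group is not independent of the filter, and a stricter filter of 6 libraries left them untested. All 12 libraries entered 1 model of 4 group means (limma 3.58.1, R 4.3.3, lmFit and eBayes with trend). The contrasts were Opn4 minus HB9 after crush, after sham, and the change between them. P-values measure the spread between libraries. The script was tested on simulated data.

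The steps of the RPKM values gave whole reads for 100% of short-gene values (tolerance 0.01 read) and for all 28168 genes above 0. They summed to 226.7% to 244.2% of the scaling totals, and the files do not say why. They were used only for depth and a limma voom alternative, which called 2112 genes after crush. No counting interval is given, since amplified reads are not independent molecules.

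The groups share replicate numbers. Deviations of same-numbered crush libraries correlated at 0.008, 0.021 and 0.032 over all genes, and the main model did not pair libraries by number. These correlations cannot show whether same-numbered libraries share a batch. The rod level was highest in replicate 1 and lowest in replicate 3 in all 4 groups. Counts with the replicate number as a block are given in the closing section.

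The comparison, its genes and the 30 gene lists were chosen with earlier results of these data known. Named genes were 16 fixed ones, the 15 highest and 15 lowest after crush without library overlap, the 10 highest and 10 lowest changes, up to 10 with opposite signs, and up to 4 members per list with the largest differences past the threshold. For the highest, lowest and most changed genes, symbols that mark predicted models, pseudogenes or small RNAs were left out. This did not apply to genes with opposite signs, of which BC022960 is a pseudogene. Other list members named were chosen after their values were seen, and per-library values favour genes whose call held in all leave-one-out fits. Gene positions are those of the deposited table, and promoter sequences are from RefSeq, which matched 10345 of the tested genes by symbol but not Crh and Thbs1. Where genes overlap, reads cannot be told apart because counting by strand is not given: of the 135 named genes, Ddit3, Sstr2, Pdzd7, Nmb, Nppa, Tfap2d, Flrt3, Vamp1, Psmb8, Cacna1h, Gadd45a, Kcna1, Tpi1, Jun, Slc12a5, BC022960, Diablo, Mapk8ip3, Psme1, Stmn1, Tap2 and Col25a1 have such a partner above 1 RPKM on average. Values of 3 genes are not reported here. Alternatives are given in the closing section.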

Additional observations from a re-analysis of the deposited data

Results flagged for a closer look

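The class difference changed with crush, by the limma interaction test over all 12 libraries, for 34 of the 135 named genes, 21 toward HB9 and 13 toward Opn4 cells. Of these calls 17 held whichever single library was left out, and the others ended in at least 1 such fit, with adjusted p up to 0.133. Without HB9 sham replicate 2 alone, 16 of the 34 ended, and without HB9 crush replicate 1, 15. On recovered reads with limma voom, 23 of the 34 did not pass. The calls of Slc12a5, Slc3a2, Htr1d, Lix1 and BC022960 held in every fit and setting tried.

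Injury genes that moved toward HB9 cells were Sprr1a (-8.98), Crh (-7.80), Ucn (-6.23), Ecel1 (-3.68), Atf3 (-3.18) and Gadd45a (-3.13). The calls of Ecel1 and Gadd45a ended in 3 and 10 of the 12 fits that left out a library, and those of the other 4 in none. With voom, Sprr1a (adjusted p = 0.468), Crh (0.41), Ucn (0.151) and Atf3 (0.616) did not pass this test.

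Other genes measured mostly in HB9 crush libraries were Prss12 (-6.33), Crabp2 (-5.81), Gpnmb (-5.62), Cdsn (-4.82) and Cd68 (-6.04). The call of Cd68 ended in 11 of the 12 fits and those of the other 4 in none. With voom none of the 5 passed (adjusted p up to 0.181), and with a pseudocount of 0.1 only Prss12 did.

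Amino acid transport and stress genes were Slc7a3 (-4.76), Slc3a2 (-2.51) and Sesn2 (-2.42). The call of Slc3a2 held in all fits, that of Sesn2 ended without HB9 crush replicate 1 (adjusted p = 0.0505), and that of Slc7a3 ended in 6.

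Class genes whose difference narrowed were Zcchc12 (-5.23) and Eomes (-3.11), whose calls held in all 12 fits but not with a pseudocount of 0.1. Further genes that moved toward HB9 cells were the somatostatin receptor Sstr2 (-6.35), BC022960 (-4.62), Lix1 (-4.54), Flrt3 (-4.0) and Pdzd7 (-2.90). Of these, BC022960 and Lix1 held in all fits, and the others ended in 6 to 9.

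Toward Opn4 cells moved Thbs1 (4.66), Slc12a5 (2.39) and Htr1d (2.39), whose calls held in all 12 fits, although Thbs1 did not pass with voom (adjusted p = 0.239) or with a pseudocount of 0.1. Genes at high levels in HB9 sham libraries and less after crush were Chrna6 (5.60), Chrnb3 (4.92), Mmp9 (4.59), Mnx1 (3.24), Sstr4 (3.05) and Nrep (2.76). Only the call of Chrna6 among these held in all 12 fits, although not with a pseudocount of 0.1, and those of Mmp9 and Sstr4 ended in 10 and 11.

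The calcium-binding protein Scgn (6.31) was at 35.5, 43.2 and 10.7 RPKM in HB9 sham libraries and listed at 0 in all HB9 crush libraries, and its call ended in 10 fits. Cd86 (3.19), listed at 0 in the HB9 libraries and at 16.6, 5.65 and 5.65 RPKM in the Opn4 crush libraries, ended in 9. It met the filter for testing through these Opn4 crush libraries alone. Shroom2 (3.40) and Ptprs (1.48) ended in 8 and 7.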

How the results depend on the processing

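No named gene that had passed changed the sign of its difference under any alternative. After sham, higher calls were 49.5% of all calls, and 50% to 53% under 9 of the 24 alternatives. With the libraries shifted to the same median they were 42.2%. The count after crush, 2325, was 768 with the rod level as a covariate, and the count after sham, 2148, was 707. Of the 768 genes, 714 were among the 2325. Leaving out single libraries gave 1356 to 2619 genes after crush, 1348 to 2353 after sham and 61 to 156 for the change of the class difference, with the lowest counts without HB9 crush replicate 1, HB9 sham replicate 2 and HB9 sham replicate 2. The change of the class difference, 149 genes, fell to 90 with a pseudocount of 0.1 and to 98 with the replicate block. With the replicate block 2152 genes passed after crush. The block moved the rod list from 3 to 11 genes and ended the calls after crush of 8 named genes. The labels do not say that the replicate numbers pair libraries. With both Opn4 libraries numbered 1 left out, 2413 genes passed after crush, and 1643 passed when only the 6 crush libraries were fitted. The other settings moved the counts by less than 1.5 times.

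Of the 131 named genes called after crush, 96 held in all 12 leave-one-out fits and 74 under all other settings that tested them. A stricter filter, 1 RPKM in at least 6 libraries, left genes such as Ucn, Cdsn, Crabp2 and Plaur untested. Voom on recovered reads ended 17. The cause of the class differences was not tested. Genes near 0 RPKM rest on few reads of 30 cells, and their size depends on the pseudocount.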
